A study of Caenorhabditis elegans with 16 samples.

Results

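Small RNAs that came down with the lin-41 transcript were compared with those of a no-target control in young adult Caenorhabditis elegans, miRNA by miRNA. The comparison rested on 5 of the 16 libraries of the series, chosen by their titles: 2 elutions obtained from wild-type N2 worms with probes against lin-41, and 3 elutions obtained from N2 worms with probes against gfp, a sequence that these worms lack. A further library, from the strain DG3913 that expresses a gfp::lin-41 transcript and was probed for gfp, served as a check without a test. All 3 kinds of library were pulldown elutions of small RNA from whole young adults. In this approach, called vIPR, ultraviolet light links RNA to the proteins bound to it, and biotinylated antisense DNA probes then retrieve a chosen transcript together with what is attached to it.

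A miRNA is cut from a hairpin precursor as a short duplex of a 5p and a 3p strand (arm), of which usually the same strand, the guide, is loaded into an Argonaute protein while the other, the passenger, is degraded. The guide pairs with sites in target mRNAs mainly through its seed near the 5′ end, and miRNAs that share a seed form a family. let-7 is a late-larval miRNA of worms that represses lin-41 through sites in its 3′ UTR, and lin-41 encodes an RNA-binding TRIM-NHL protein that is known for its roles in larval epidermis and, in adults, in oocytes. The lin-41 gene occupies bases 9334800 to 9342496 of chromosome I, minus strand (WBcel235 assembly). The recovery of the lin-41 mRNA itself was not part of these counts. Since whole worms were used, a lower count from a tissue can mean fewer of its cells or less RNA per cell. In a pulldown it can also mean that less of the miRNA was retrieved, and these cannot be told apart.

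The lin-41 libraries held 1055420 and 163422 miRNA reads and the gfp::lin-41 library 2081849, against 73899, 42622 and 12474 in the control libraries. The lin-41 libraries were thus deeper than every control, and 3 reads corresponded to a share of 0.0241% in the shallowest control. Of the 434 mature miRNAs listed, 259 had a read in some library and 112 had at least 10 reads in at least 2 of the 16 libraries and were tested. Counting error is only a part of the uncertainty, because reads of PCR copies were not collapsed. Levels are given as reads, as a percentage of all miRNA reads in a library, or as normalised CPM, which are CPM after scaling by trimmed mean of M values (TMM). The TMM factors were 0.257 and 0.628 in the lin-41 libraries, against 4.35, 4.79 and 5.31 in the controls, so the normalised CPM of a library need not add up to its nominal total, and a value describes a level relative to the bulk of the miRNAs. Replicates of a group differed by a median of 0.723 on the log2 scale between the lin-41 libraries and by 0.866 to 1.10 between the controls. Nothing in the labels says whether replicates came from separate worm cultures. The p-values thus measure the spread between libraries of a group, which was estimated over all 16 libraries of the series.

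Of the 112 miRNAs, 15 (13.4%) had a higher and 5 (4.46%) a lower level in lin-41 pulldowns than in the control (edgeR quasi-likelihood test, adjusted p-value under 0.05). Without adjustment, 20 were higher and 12 lower at a p-value under 0.05. In 14 of the 15 miRNAs called higher both lin-41 libraries lay above all 3 controls, and in 5 of the 5 called lower they lay below them. Over all tested miRNAs such a separation was found upwards for 20.5% and downwards for 17%. By strand, 10 of 51 tested 5p miRNAs were higher and 5 lower, whereas 4 of 57 tested 3p miRNAs were higher and 0 lower. The higher 5p calls include miR-784-5p and miR-49-5p, which reached the minimum of reads only through the lin-41 libraries. miR-8188-5p and miR-8187-3p are counted on their own strands, although their reads were equal in 15 of the 16 libraries. At an unadjusted p-value under 0.05, 11 of the 5p miRNAs were higher and 6 lower, against 8 and 6 of the 3p miRNAs. DESeq2 called 10 of the 5p miRNAs higher and 5 lower, against 5 and 0 of the 3p miRNAs. Whether the strands differ was not tested. The remaining edgeR call came from miR-4932, one of 4 tested miRNAs listed without a strand. These counts describe changes relative to the bulk of the miRNAs, whose median log2 fold change was −0.05. With library totals as the only scaling the median fell to −3.62, and the split became 5 higher and 80 lower. The miRNAs that stayed higher there were let-7-5p, miR-72-5p, miR-4932, miR-784-5p and miR-51-3p. Without lin-41 replicate 2 the counts were 10 higher and 2 lower, and without control replicate 2 they were 16 higher and 8 lower.

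The largest change in composition came from a pair of miRNAs. let-7-5p took 84.0% and 66.2% of the reads of the lin-41 libraries and 74.1% of the gfp::lin-41 library, against 3.54%, 4.96% and 6.56% in the controls. miR-72-5p took 11.3% and 23.4% in lin-41 and 19.9% in gfp::lin-41, against 1.88%, 1.39% and 4.19% in the controls. Together both miRNAs made up 95.3% and 89.7% of the lin-41 reads and 94.1% of the gfp::lin-41 reads, against 5.43% to 10.8% of the control reads. Both lin-41 libraries lay above all controls for both miRNAs, also as plain shares of the reads.

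**Figure D1:**
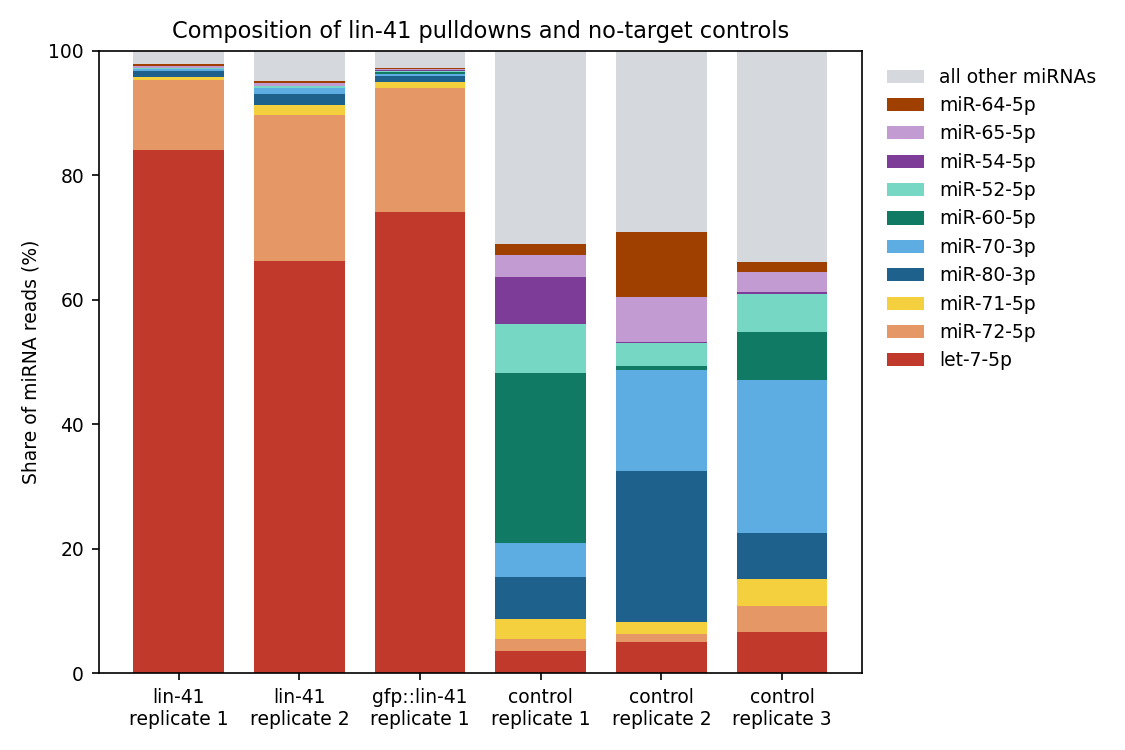
Share of miRNA reads (%, vertical axis) taken by 10 named miRNAs and by all others in each lin-41, gfp::lin-41 and control library; each stacked bar is 1 library. let-7-5p and miR-72-5p fill 89.7% to 95.3% of the lin-41 and gfp::lin-41 bars, against 5.43% to 10.8% of the control bars.

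Relative to the bulk, miR-72-5p was 6.33 higher on the log2 scale in lin-41 than in control (SE 0.602, edgeR adjusted p-value 4.39e-09), next to 7.72 for let-7-5p (SE 0.699, adjusted p-value 3.18e-09). The 2 lin-41 libraries held 118870 and 38277 miR-72-5p reads, against 1393, 594 and 523 in the controls. The call held with every library left out in turn and under every alternative that was run, with log2 fold changes between 2.80 under library totals and 6.81. mir-72 is annotated on chromosome II from 2452838 to 2452936, plus strand, outside protein-coding genes and with no other precursor within 10000 bases. miR-72-5p is known to share its seed with miR-73-3p and miR-74-3p. miR-73-3p did not pass the test, with a log2 fold change of −1.22 (SE 0.597, adjusted p-value 0.173), and miR-74-3p was too rare to be tested, so 1 of 2 tested family members was higher. The other strand of the precursor, miR-72-3p, was at 2 and 0 reads in lin-41, against 0, 6 and 1 in control.

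Further miRNAs were higher in lin-41 at lower levels. miR-246-3p had 5712 and 6305 normalised CPM in lin-41 libraries and 2932 in gfp::lin-41, against 106, 176 and 498 in controls. Its log2 fold change was 4.60 (SE 0.627, edgeR adjusted p-value 2.57e-06), and the groups did not overlap. With library totals as the only scaling the value was 1.10 and was no longer called (adjusted p-value 0.174). mir-246 lies outside protein-coding genes on chromosome IV from 10940134 to 10940230, plus strand.

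miR-259-5p was counted 48 and 68 times in lin-41 and 75 times in gfp::lin-41, against 0, 1 and 3 times in control. Its log2 fold change was 5.43 (SE 1.18, edgeR adjusted p-value 1.33e-03). miR-788-5p had 89 and 52 reads in lin-41 and 2613 in gfp::lin-41, against 4, 8 and 2 in control, which gave a log2 fold change of 3.98 (SE 0.80, adjusted p-value 5.78e-04). For both miRNAs the groups did not overlap, and the calls held with every library left out. Under library totals neither was called (log2 fold changes of 2.21 for miR-259-5p and 0.65 for miR-788-5p, adjusted p-values 0.144 and 0.578). mir-259 lies on chromosome V from 10539025 to 10539125 and mir-788 on chromosome X from 8485294 to 8485371, both on the minus strand and outside protein-coding genes.

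A pair of miRNAs was at 0 reads in all controls. miR-4932 had 154 and 33 reads in lin-41 and 115 in gfp::lin-41, against 0, 0 and 0 in control. With a floor of 3 reads over the 3 control libraries, it was at least 98.6-fold higher in lin-41 (edgeR adjusted p-value 3.40e-06). miR-784-5p had 41 and 24 reads in lin-41 and 3 in gfp::lin-41, against 0, 0 and 0 in control, and was at least 34.3-fold higher by the same floor (adjusted p-value 8.87e-04). The call of miR-4932 held in every fit that was run, library totals included. The filter on low counts kept miR-784-5p because of the lin-41 libraries themselves, since without them fewer than 2 libraries reached 10 reads, and the same was true of miR-49-5p. These 2 miRNAs were thus tested because they were high in lin-41, so their calls are given as values only, and 13 of the miRNAs called higher remain without them. mir-4932 lies on chromosome I from 9512307 to 9512416, plus strand, and mir-784 on chromosome X from 8074922 to 8075009, minus strand, neither within a protein-coding gene.

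The rarest of the miRNAs called higher rested on 13 to 37 reads in lin-41 and 1 read in control. miR-49-5p was at 22 and 15 reads in lin-41, against 0, 0 and 1 in control, a ratio of scaled reads of 58.5 with a 95% counting interval from 9.88 to 2374. miR-4814-3p had 25 and 5 reads, against 0, 1 and 0, a ratio of 47.5 (7.89 to 1937). miR-8187-3p and miR-8188-5p each had 15 and 9 reads, against 0, 0 and 1, a ratio of 38.0 (6.19 to 1562). The edgeR adjusted p-values of these 4 miRNAs were 6.97e-03 for miR-49-5p and 7.10e-03 for each of the others. The counts of miR-8187-3p and miR-8188-5p were equal in 15 of the 16 libraries and differed by 1 read in the other one, so they cannot be read as separate observations.

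Some of these calls rested on a single library, whereas those of miR-8187-3p and miR-8188-5p held with each of the 5 libraries left out (highest adjusted p-value 0.041). miR-49-5p was no longer called without lin-41 replicate 2 (log2 fold change 5.12, edgeR adjusted p-value 0.0509, against 5.58 with all libraries). miR-4814-3p was no longer called without lin-41 replicate 1 (4.52, adjusted p-value 0.101, against 5.09). miR-70-5p, with 4 and 9 reads in lin-41 and 0 in gfp::lin-41, against 0, 0 and 1 in control, was the only miRNA called higher whose groups overlapped in normalised CPM (log2 fold change 4.33, SE 1.36, adjusted p-value 0.0258). Its call was lost without control replicate 1 (3.34, adjusted p-value 0.151), without control replicate 2 (3.75, adjusted p-value 0.0801) and without lin-41 replicate 2 (2.75, adjusted p-value 0.344). mir-4814, mir-8187 and mir-70 are annotated in introns on the same strand of W06F12.2 (chromosome III), ech-7 (chromosome I) and pmp-5 (chromosome V), whereas mir-49 and mir-8188 have no protein-coding host.

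**Figure D2:**
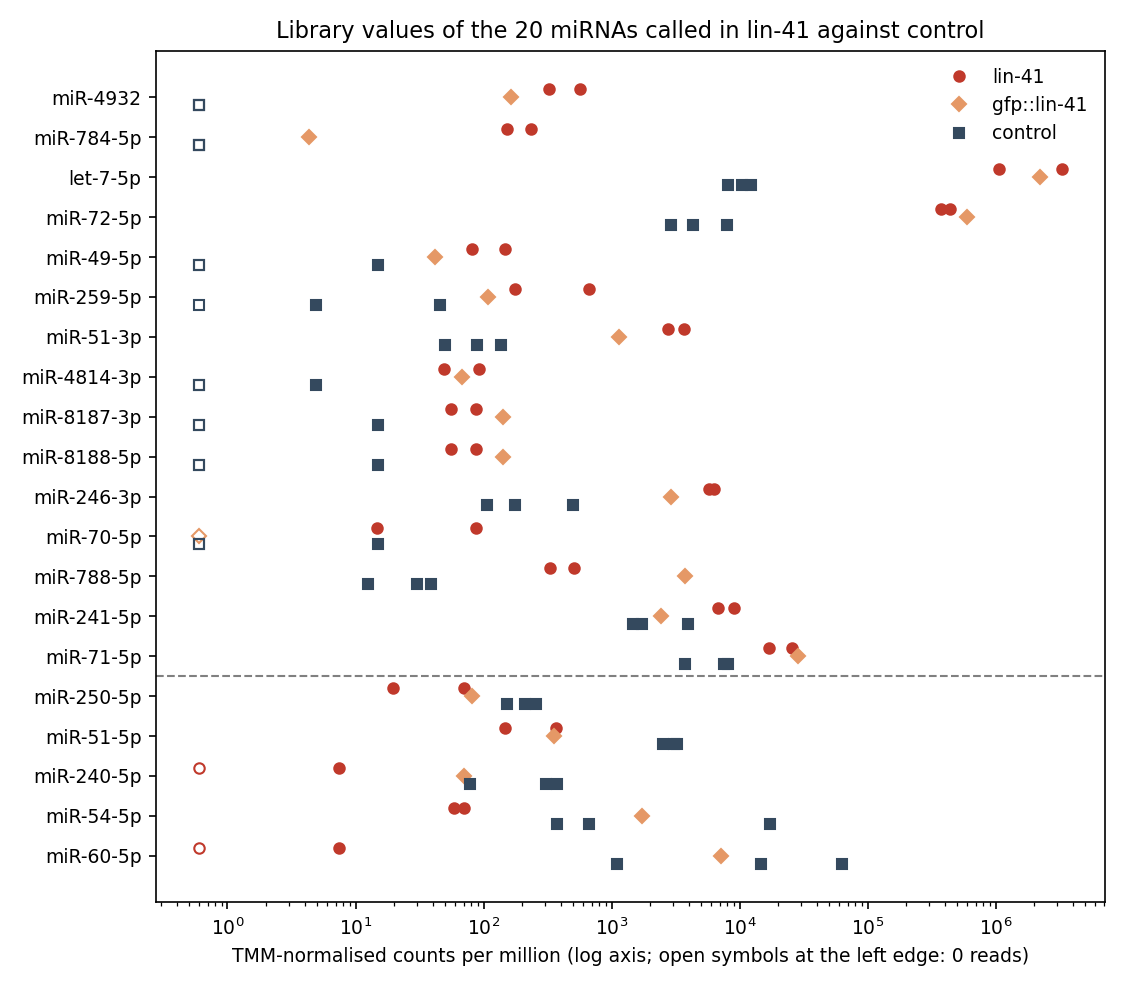
Normalised CPM (log axis) of the 20 miRNAs called in lin-41 against control, 1 point per library for lin-41, gfp::lin-41 and control, with open symbols at the left edge for 0 reads; the dashed line parts the 15 higher from the 5 lower. In all but miR-70-5p the lin-41 points lie on one side of every control point.

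Besides let-7-5p, the let-7 family counts miR-48-5p, miR-84-5p, miR-241-5p, miR-793, miR-794-5p and miR-795-5p, which are known to share its seed. Of the 7 members, 6 were tested, 2 were higher and 0 lower, with a median log2 fold change of 0.87 against −0.05 over all tested miRNAs, of which 13.4% were higher. One of the 2 was let-7-5p itself. At an unadjusted p-value under 0.05 and by DESeq2, 2 were likewise higher and 0 lower. miR-241-5p had 6755 and 9024 normalised CPM in lin-41 and 2427 in gfp::lin-41, against 1737, 1478 and 3938 in control. The groups did not overlap, but the gfp::lin-41 library lay within the range of the controls. The log2 fold change was 1.73 (SE 0.542, edgeR adjusted p-value 0.0229). It was not called without control replicate 2 (1.48, adjusted p-value 0.0681) or without lin-41 replicate 2 (1.51, adjusted p-value 0.224), and with library totals as the only scaling it was −1.68.

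The other family members did not pass the test. Their log2 fold changes were 0.79 for miR-48-5p (SE 0.536, edgeR adjusted p-value 0.352), 0.95 for miR-84-5p (SE 0.574, adjusted p-value 0.284), 0.36 for miR-793 (SE 1.25) and −0.80 for miR-795-5p (SE 0.860). miR-48-5p had 11092 and 5009 normalised CPM in lin-41, against 5283, 3945 and 4768 in control, and lin-41 replicate 2 fell within the controls. miR-84-5p had 2443 and 4434 normalised CPM in lin-41, against 1728, 636 and 2987 in control, and the groups overlapped. mir-241 and mir-48 are neighbours on the minus strand of chromosome V, 1679 bases apart, with mir-241 from 14366188 to 14366283.

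miR-71-5p, an abundant miRNA of adult worms with a known role in lifespan, had 16944 and 25776 normalised CPM in lin-41 and 28756 in gfp::lin-41, against 7540, 3740 and 8147 in control. Every lin-41 and gfp::lin-41 value lay above every control. The log2 fold change was 1.72 (SE 0.529, edgeR adjusted p-value 0.0209), and it was lost without control replicate 2 (1.45, adjusted p-value 0.0508) or lin-41 replicate 2 (1.39, adjusted p-value 0.235). As a plain share of reads miR-71-5p went the other way, with 0.436% and 1.62% in lin-41, against 3.28%, 1.79% and 4.33% in control. mir-71 lies in a ppfr-1 intron (chromosome I, minus strand, 9379927 to 9380020).

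The strands of the mir-51 hairpin moved in opposite directions. miR-51-3p had 744 and 379 reads in lin-41 and 796 in gfp::lin-41, against 16, 18 and 9 in control. Its log2 fold change was 5.22 (SE 0.645, edgeR adjusted p-value 5.55e-07). miR-51-5p had 99 and 15 reads in lin-41 and 248 in gfp::lin-41, against 986, 516 and 214 in control, with a log2 fold change of −3.50 (SE 0.687, adjusted p-value 5.07e-04). The log2 ratio of 5p to 3p reads, with 0.5 added to each count, was −2.90 and −4.61 in lin-41 and −1.68 in gfp::lin-41, against 5.90, 4.80 and 4.50 in control. The 3p strand thus exceeded the 5p strand in all lin-41 and gfp::lin-41 libraries, and the 5p strand exceeded the 3p strand in all controls. This was not particular to lin-41, since the mean ratio was −4.16 in the alg-1 pulldowns, and 0.57 in those of gld-1. The exact two-sided permutation p-value of this ratio was 0.1, the smallest that 2 against 3 libraries can give. Both single-strand calls held in every alternative that was run. mir-51 lies on chromosome IV from 11026013 to 11026112, minus strand, with mir-53 at a distance of 1481 bases and no protein-coding host.

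Of the 23 precursors with both strands tested, mir-51 was the one with both strands called, and 10 had a single strand called. The ratio of 5p to 3p reads was lower in both lin-41 libraries than in all controls for 6 precursors (26.1%) and higher for 5. Among the miRNAs called higher, miR-72-5p, miR-49-5p, miR-70-5p, miR-71-5p, miR-241-5p and miR-788-5p had a tested 3p partner that was not called, with log2 fold changes of the partner from −1.65 for miR-71-3p to 2.42 for miR-788-3p. For mir-49 the log2 ratio of 5p to 3p reads was 1.24 and 3.37 in lin-41 and 1.80 in gfp::lin-41, against −4.64, −4.09 and 0.00 in control.

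**Figure D3:**
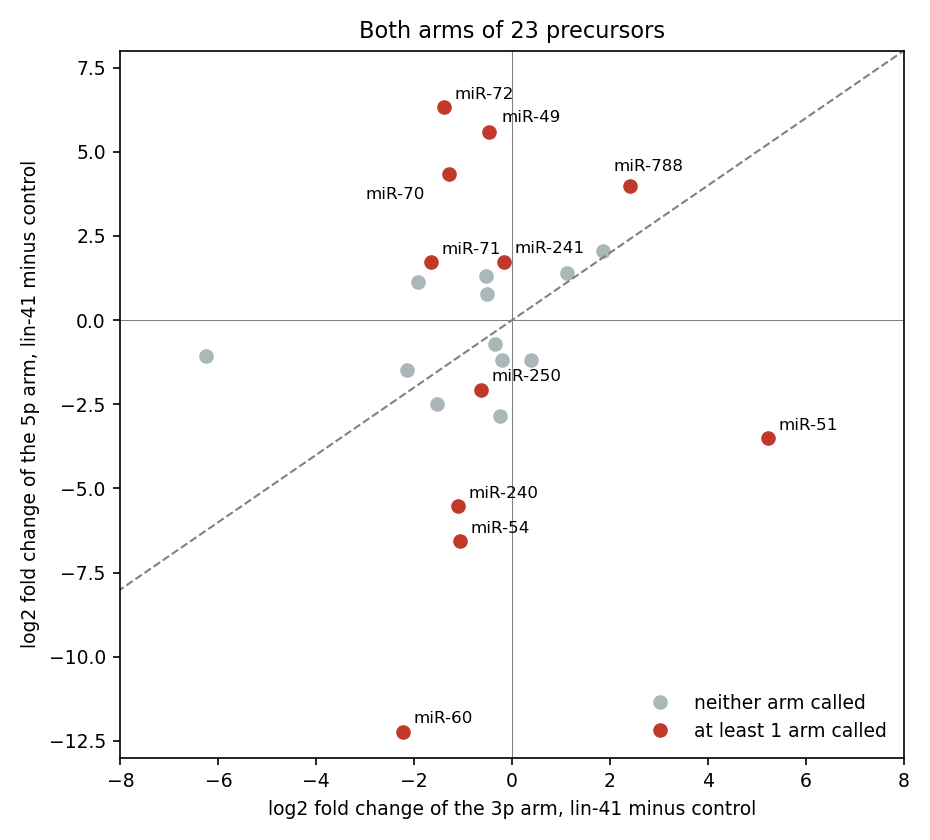
log2 fold change in lin-41 minus control of the 5p strand (vertical axis) and the 3p strand (horizontal axis) for 23 precursors with both strands tested; red points have at least 1 strand called and the dashed line marks equal change. mir-51 lies alone at the lower right, with −3.50 for the 5p and 5.22 for the 3p strand.

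All 5 miRNAs called lower were 5p strands. In 4 of their precursors, mir-51, mir-54, mir-60 and mir-240, the 3p strand had more reads than the 5p strand in both lin-41 libraries. The mean log2 ratio of 5p to 3p reads was also negative in alg-1 for these 4, and in gld-1 for mir-54, mir-60 and mir-240. Some controls shared this, with −4.05 and −2.57 for mir-54 in control replicates 2 and 3, and −0.45 for mir-240 in control replicate 2. miR-60-5p was counted 2 and 0 times in lin-41 and 5005 times in gfp::lin-41, against 20097, 224 and 969 in control. The ratio of scaled reads in control over lin-41 was 6727 with a 95% counting interval from 1862 to 55552 (edgeR adjusted p-value 2.21e-03). The controls themselves were spread widely, with miR-60-5p at 27.2%, 0.526% and 7.77% of their reads. Without lin-41 replicate 2 the adjusted p-value was 0.0542 (log2 fold change −11.7). The log2 ratio of miR-60-5p to miR-60-3p was −2.81 and −3.91 in lin-41 and 4.85 in gfp::lin-41, against 7.56, 2.02 and 5.49 in control. mir-60 lies on chromosome II from 6328702 to 6328799, minus strand, and its 3p strand is known from the intestine.

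miR-54-5p had 19 and 6 reads in lin-41 and 1202 in gfp::lin-41, against 5590, 77 and 44 in control. The log2 fold change was −6.56 (SE 1.73, edgeR adjusted p-value 0.0209), and the call was lost without lin-41 replicate 1 (−6.71, adjusted p-value 0.186) or replicate 2 (−6.45, adjusted p-value 0.235). miR-240-5p had 2 and 0 reads in lin-41 and 49 in gfp::lin-41, against 98, 16 and 25 in control. The ratio of control over lin-41 was 43.9 with a 95% counting interval from 11.9 to 366 (adjusted p-value 1.37e-03), and this call held in every alternative that was run.

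miR-250-5p was the weakest of the 5, with 19 and 2 reads in lin-41 and 57 in gfp::lin-41, against 49, 52 and 14 in control. The log2 fold change was −2.07 (SE 0.662, edgeR adjusted p-value 0.0257), and it was lost without control replicate 2 (−1.85, adjusted p-value 0.0508) or lin-41 replicate 2 (−1.55, adjusted p-value 0.290). mir-240 lies 33 bases from mir-786 on chromosome X, mir-250 lies 45 bases from mir-61 on chromosome V, and mir-54 lies in a cluster with mir-55 and mir-56 on chromosome X. For miR-60-5p, miR-54-5p, miR-51-5p and miR-240-5p the pulldowns of alg-1 and gld-1 were also far below these same 3 control libraries. In alg-1 and gld-1 the log2 fold changes against control were −11.7 and −11.1 for miR-60-5p, −5.52 and −6.26 for miR-54-5p, −2.77 and −3.39 for miR-51-5p, and −3.56 and −5.27 for miR-240-5p. Of the 15 miRNAs called higher in lin-41, 7 were also higher than these controls in alg-1 and 8 in gld-1 (edgeR adjusted p-value under 0.05). Over all 112 tested miRNAs, 16.1% were higher in alg-1 and 15.2% in gld-1. In alg-1 and gld-1 the log2 fold changes against control were 3.74 and 1.55 for let-7-5p, 1.68 and 2.84 for miR-72-5p, 5.72 and 2.79 for miR-71-5p, and 6.51 and 1.03 for miR-51-3p. They were 2.12 and −0.10 for miR-241-5p, −1.39 and 2.03 for miR-246-3p, 4.38 and 2.26 for miR-4814-3p, and 2.78 and 4.33 for miR-8187-3p and for miR-8188-5p. For miR-4932, at 0 reads in all controls, they were 5.90 and 7.33, and both pulldowns passed the test. For miR-70-5p they were 1.81 and 12.9, and only gld-1 passed. All of these comparisons share the 3 control libraries.

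In the other families few members were called, against 13.4% higher, 4.46% lower and a median of −0.05 over all 112 tested miRNAs. With 2 to 6 tested members each, a single call exceeds these shares. The miR-51 family, which holds the 5p strands of mir-51 to mir-53 and the 3p strands of mir-54 to mir-56, had 6 of 6 members tested. miR-51-5p was lower and the rest were not called, with log2 fold changes from −1.08 for miR-52-5p to −0.18 for miR-53-5p. Taken instead by strand, the 5p strands of mir-51 to mir-56 had 4 members tested, 0 higher and 2 lower (median −2.29), and the 3p strands 5 tested, 1 higher and 0 lower (median −0.73). The miR-35 family, maternal and embryonic miRNAs that are made in the germline, had 6 of 8 members tested, 0 higher and 0 lower, and a median of −1.08, with 3 lower at an unadjusted p-value under 0.05 and 0 called by DESeq2. The miR-58 family, among the most abundant of the worm, had 4 of 5 tested and none called (median 0.42), and the miR-64 cluster 4 of 4 tested and none called (median 0.03). In the miR-58 family, the miR-64 cluster and the lin-4 family, 0 members passed an unadjusted p-value of 0.05 in edgeR and 0 were called by DESeq2. Neither member of the lin-4 family, which acts in early larval timing, was called (log2 fold changes of −0.78 for lin-4-5p and −0.06 for miR-237-5p).

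**Figure D4:**
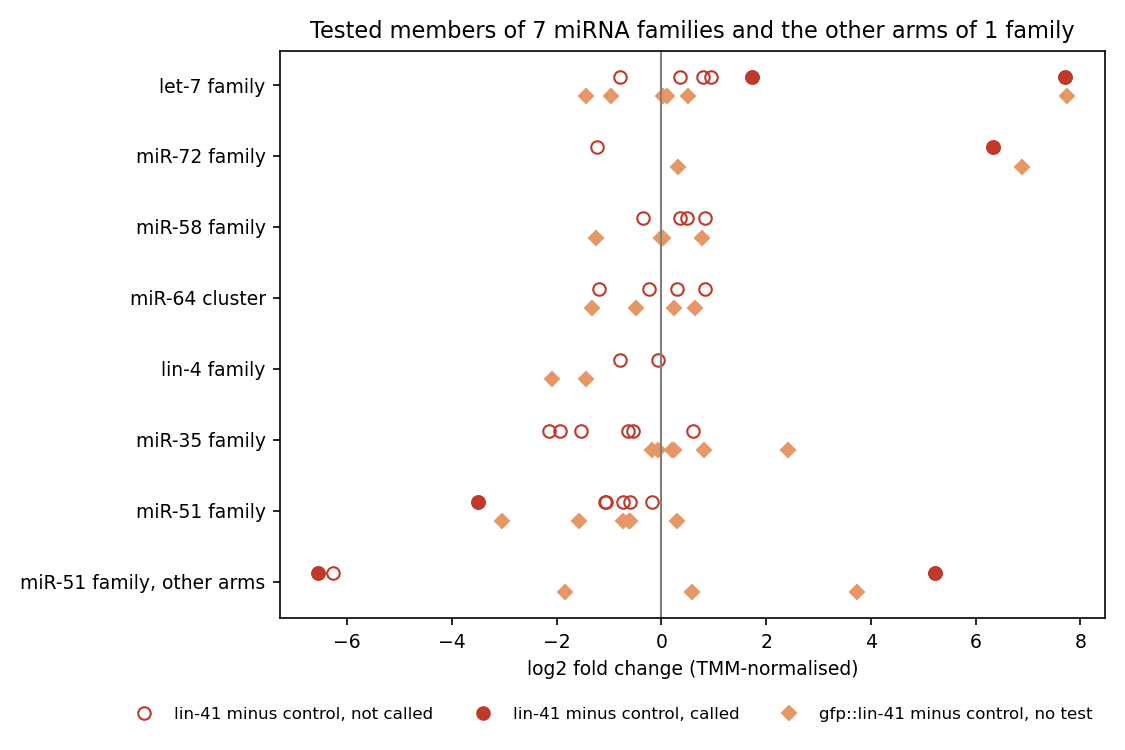
log2 fold change (horizontal axis) of each tested member of 7 miRNA families and of the other strands of the miR-51 family, in lin-41 minus control (circles, filled where called) and in gfp::lin-41 minus control (diamonds, no test). let-7-5p and miR-72-5p stand at 7.72 and 6.33, apart from the other members of their families.

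miRNAs known from muscle, neurons or intestine were scarce. The miR-35 family of germline and embryo was not, with 2795 and 1045 reads over its members in lin-41, against 7446, 978 and 369 in control. miR-1-3p of muscle was at 2 and 1 reads in lin-41, against 1, 1 and 0 in control, and lsy-6-3p, known from a sensory neuron, had 0 reads in all of these libraries. miR-124-3p of neurons was at 20 and 2 reads in lin-41, against 0, 24 and 1 in control, so the groups overlapped. For miR-60-3p the lin-41 libraries held 17 and 7 reads, against 106, 55 and 21 in control, with a log2 fold change of −2.22 that did not pass the test. The part of tissue composition in the results was not tested.

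The lin-41 libraries were next set against the pulldowns most like them, those of endogenous alg-1 (2 libraries) and gld-1 (2 libraries) from N2, which involves no control library. alg-1 encodes an Argonaute protein and gld-1 an RNA-binding protein of the germline. Here lin-41 had a higher level of 13 miRNAs (11.6%) and a lower level of 12 (10.7%) (edgeR adjusted p-value under 0.05), and 9 (8.04%) were higher in both comparisons. These 9 were let-7-5p, miR-72-5p, miR-246-3p, miR-259-5p, miR-788-5p, miR-4932, miR-784-5p, miR-49-5p and miR-51-3p. Both comparisons use the same lin-41 libraries, so they are not independent of each other. miR-784-5p and miR-49-5p, which passed the filter only through these libraries, leave 7 of the 9 when set aside. The counts fell to 8 higher and 5 lower without lin-41 replicate 2, to 8 and 8 without lin-41 replicate 1, and to 10 and 7 without alg-1 replicate 2.

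miR-72-5p had 438051 and 373018 normalised CPM in lin-41, against 12396 and 19797 in alg-1 and 38933 and 33401 in gld-1, with a log2 fold change of 4.07 (adjusted p-value 5.41e-07). miR-246-3p had 5712 and 6305 normalised CPM in lin-41, against 90.6 and 98.4 in alg-1 and 1096 and 931 in gld-1 (log2 fold change 4.28, edgeR adjusted p-value 1.22e-06). In both miRNAs the lin-41 libraries stood above all 4 others. miR-259-5p was 5.20 higher (adjusted p-value 2.57e-04). The filter-dependent miR-784-5p was at 41 and 24 reads in lin-41, against 0 and 0 in alg-1 and 0 and 2 in gld-1, and miR-49-5p 22 and 15 reads in lin-41, against 0 and 0 in alg-1 and 1 and 8 in gld-1. miR-4932, with 5 and 5 reads in alg-1 and 16 and 16 in gld-1, had a log2 fold change of 3.49 (adjusted p-value 6.89e-04). miR-788-5p was 2.56 higher (adjusted p-value 5.55e-03), and its call was lost without lin-41 replicate 2 (2.22, adjusted p-value 0.0672).

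miR-51-3p depended on which of the 2 pulldowns it was set against. It had 2742 and 3693 normalised CPM in lin-41, against 6642 and 9031 in alg-1 and 195 and 158 in gld-1, so lin-41 lay between them. Its log2 fold change of 1.45 against their average (edgeR adjusted p-value 0.0446) was lost with each of the 6 libraries left out (adjusted p-values up to 0.281), and against alg-1 alone it was −1.28. miR-70-5p, higher in lin-41 than in control, was lower than in these pulldowns (log2 fold change −3.04, adjusted p-value 0.0412), where gld-1 held 4612 and 4146 reads and alg-1 0 and 3. Without alg-1 replicate 2 this value was −0.72 (adjusted p-value 0.924). It was also lost without lin-41 replicate 1 (−2.09, adjusted p-value 0.305), without gld-1 replicate 1 (−2.95, adjusted p-value 0.0638) and without gld-1 replicate 2 (−3.13, adjusted p-value 0.0563).

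A further 4 miRNAs were higher than in alg-1 and gld-1 without being called against the control. miR-1817 had 122 and 76 reads in lin-41, against 5 and 6 in alg-1 and 17 and 16 in gld-1, a log2 fold change of 3.80 (SE 0.659, edgeR adjusted p-value 1.03e-04). In the control it had 74, 40 and 35 reads, and the log2 fold change there was 0.93 (adjusted p-value 0.391). The others were miR-42-5p (3.93, adjusted p-value 9.52e-03), miR-35-3p (2.57, adjusted p-value 0.0237) and miR-70-3p (1.74, adjusted p-value 0.0242). The call of miR-35-3p was lost with each library left out (2.35 to 2.76) and that of miR-70-3p with each but gld-1 replicate 2 (1.51 to 2.10). That of miR-42-5p was lost without alg-1 replicate 1 (3.29) or lin-41 replicate 1 (3.21). miRNAs lower in lin-41 than in these pulldowns included miR-84-5p (−4.57, adjusted p-value 2.15e-05), miR-71-5p (−2.53, adjusted p-value 1.80e-03) and miR-250-5p (−2.41, adjusted p-value 7.79e-03). miR-84-5p had 2443 and 4434 normalised CPM in lin-41, against 11269 and 16715 in alg-1 and 292548 and 660129 in gld-1, so its average was carried mainly by gld-1. That of miR-71-5p was carried mainly by alg-1, with 16944 and 25776 in lin-41, against 258590 and 425029 in alg-1 and 34800 and 54503 in gld-1, and against gld-1 alone it was −1.06 and not called (edgeR adjusted p-value 0.261). miR-250-5p was lost without lin-41 replicate 2 (−1.89, adjusted p-value 0.144), and miR-71-5p without lin-41 replicate 1 (−2.26, adjusted p-value 0.0508).

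**Figure D5:**
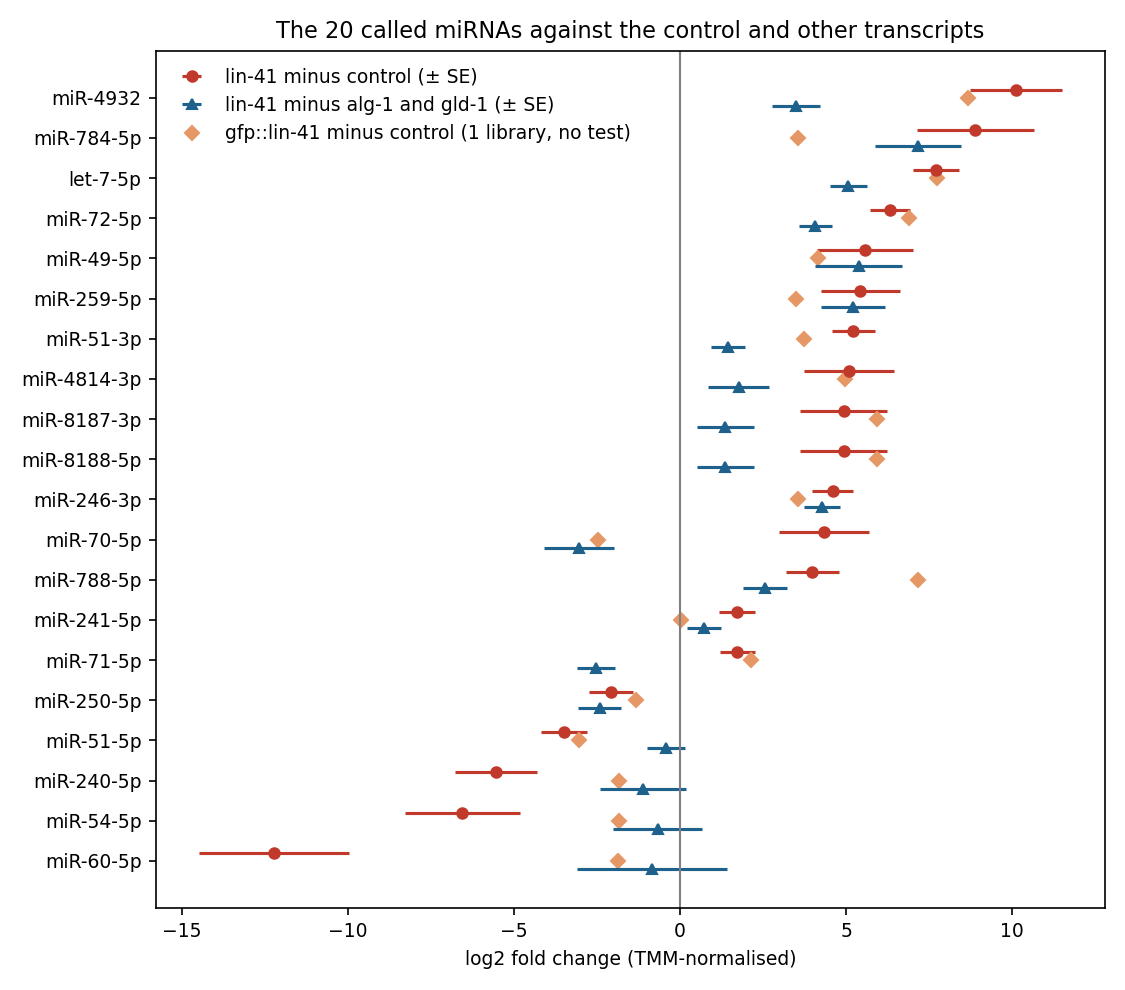
log2 fold change (horizontal axis) of the 20 miRNAs called against the control, in lin-41 minus control and in lin-41 minus the average of alg-1 and gld-1 (both ± SE), and in gfp::lin-41 minus control (1 library, no test). The fitted values of miR-784-5p and miR-4932, at 0 reads in all controls, depend on the prior count. miR-784-5p and miR-49-5p passed the filter only through lin-41. Among the other miRNAs, let-7-5p, miR-72-5p, miR-259-5p and miR-246-3p stay above 4 in both lin-41 comparisons, which share the lin-41 libraries. miR-60-5p is at −12.2 against control and −0.85 against alg-1 and gld-1.

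The gfp::lin-41 library came from another strain and was retrieved with gfp probes, as the controls were, and not with lin-41 probes. The lin-41 and control libraries thus differed in probes as well as in target, and the parts of these cannot be told apart. The gfp::lin-41 library lay above all controls for 13 of the 15 miRNAs called higher and below all controls for 3 of the 5 called lower. The share over all tested miRNAs was not determined for this single library, so these counts cannot be read as agreement. miR-35-3p, which was not called, also lay above all controls there (22072.7 normalised CPM, against at most 10510.5). For miR-784-5p (3 reads, 4.30 normalised CPM) and miR-49-5p (29 reads, 41.6 normalised CPM) the gfp::lin-41 library lay under the 45.3 normalised CPM that 3 reads give in the shallowest control. In control replicates 1 and 2, 3 reads give 9.34 and 14.7 normalised CPM. These could have shown the level of miR-49-5p, whereas no control could have shown that of miR-784-5p. Setting both miRNAs aside leaves 11. The exceptions upwards were miR-241-5p, within the controls, and miR-70-5p, with 0 reads. Downwards they were miR-54-5p and miR-60-5p, which lay within the wide range of the controls. Its log2 fold changes against the control, which have no replicate and no test, were 6.88 for miR-72-5p, 3.56 for miR-246-3p, 3.49 for miR-259-5p, 3.73 for miR-51-3p and −3.05 for miR-51-5p. The value of miR-788-5p was 7.16 in gfp::lin-41 and 3.98 in lin-41, a difference that was not tested.

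Library names carry a prefix, which may mark a batch. Within the prefix shared by lin-41 replicate 1 and control replicate 2, the log2 ratio of normalised CPM (1 added to each) was positive for 15 of the 15 miRNAs called higher and negative for 5 of the 5 called lower. It was 7.23 for miR-72-5p, 5.01 for miR-246-3p, 4.94 for miR-51-3p and −2.79 for miR-51-5p. Both libraries of this pair were among those that gave the calls. For 14 of the 15 higher and 5 of the 5 lower calls, every lin-41 library lay beyond every control. The signs thus followed from the calls and are no separate check on a batch. lin-41 replicate 2 shared its prefix with no control, so no within-prefix value could be given for it. With the prefix as a term in the fit, lin-41 had 22 miRNAs above and 8 below the control, among them all 15 and all 5 called without it.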

How the data were processed

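Small RNA from pulldown elutions was sequenced after library preparation with SMARTer smRNA-Seq chemistry, which polyadenylates the RNA. The authors trimmed reads with cutadapt 1.14, removed Escherichia coli reads with Bowtie2 2.3.3.1, and counted known miRNAs with miRDeep2; the deposited counts are raw whole numbers of reads, 1 row for each pair of mature miRNA and precursor. Of 452 rows per file, the largest was kept for each of 15 miRNAs listed for several precursors. Near-identical miRNAs can share reads.

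Counts of all 16 libraries were fitted in edgeR 4.0.16 (R 4.3.3) with 1 mean per group, TMM factors and a robust quasi-likelihood fit, which had a common biological coefficient of variation of 0.532. Benjamini-Hochberg adjustment ran over 112 miRNAs (at least 10 reads in at least 2 libraries), with a threshold of 0.05. The study itself used a regression of log2 reads and no test. SEs were obtained as the absolute log2 fold change over the root of the F statistic. Fits were tested on simulated counts. Groups came from sample titles. The miRNAs named were those called against the control, their tested strand partners and the tested members of fixed family lists. They and the lists were chosen with earlier results of these data known, and the miRNAs called against alg-1 and gld-1 and the seed-based composition of the miR-51 family were added after the values were seen. Grouping by shared seed beyond these lists was not done, since no sequences were used here. Alternatives covered scaling, filter, test (DESeq2 1.42.0), precursor rows, samples, block, prefix and left-out libraries. Positions are those of Ensembl release 115, or of RefSeq for let-7; 247 of 250 precursors were found.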

Additional observations from a re-analysis of the deposited data

How the results depend on the processing

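Scaling decided the counts most. Against the control, library totals gave 5 higher and 80 lower, and totals without the let-7-5p reads gave 43 lower, with medians over all miRNAs of −3.62 and −1.60. Without a filter, or with only the compared groups in the fit, 3 were lower, and with the name prefix as a factor 8 were lower. Leaving out a library gave 10 to 17 higher and 2 to 8 lower. Against alg-1 and gld-1, library totals gave 7 higher and 27 lower, and RLE factors, upper-quartile factors and totals without let-7-5p each gave 7 lower. Leaving out a library there gave 8 to 11 higher and 5 to 9 lower. Under library totals the log2 fold change against the control turned from positive to negative for 15 named miRNAs. Of these, miR-241-5p (−1.68) and miR-71-5p (−1.61) were called higher than the control with TMM factors. The others, not called against the control with TMM factors, were miR-1817 (−2.43), miR-35-3p (−2.81), miR-65-5p (−3.28), miR-66-5p (−2.64), miR-84-5p (−2.36), miR-48-5p (−2.90) and miR-793 (−3.47). They also included miR-80-3p (−3.18), miR-81-3p (−2.59), miR-82-3p (−2.77), miR-42-5p (−2.49), miR-788-3p (−1.06) and miR-124-3p (−3.75). Fits added after seeing the data turned the sign of miR-51-3p (−1.28), miR-70-5p (2.52), miR-65-5p (0.55) and miR-66-5p (0.60) against alg-1 alone, and of miR-40-3p (0.054) against gld-1 alone. The causes were not tested, beyond the scaling itself. Against the control, 6 of 18 calls held wherever the miRNA was tested: let-7-5p, miR-72-5p, miR-4932, miR-51-3p, miR-51-5p and miR-240-5p. Against alg-1 and gld-1, 8 of 23 did. Both counts leave out miR-784-5p and miR-49-5p, which passed the filter only through lin-41.

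Replicate numbers did not pair the libraries, since deviations correlated at 0.14 for number 1 and −0.06 for number 2 between lin-41 and control. A replicate block gave 17 higher and 4 lower against the control, and 12 and 12 against alg-1 and gld-1. With the gld-1 numbers crossed, because of a correlation of −0.13, the counts were 13 and 13. The depth of the controls limits what can be seen of rare miRNAs: 3 reads were 0.0241% of the shallowest.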

Other observations

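Several of the miRNAs called lower in lin-41 than in the average of alg-1 and gld-1 differed mainly from a single one of these pulldowns. miR-50-5p had 394 and 370 normalised CPM in lin-41, against 8731 and 14912 in alg-1 and 866 and 695 in gld-1, with a log2 fold change of −2.99 (edgeR adjusted p-value 3.78e-04). It was below each alg-1 and gld-1 library, but against gld-1 alone the value was −1.03 and was not called (edgeR adjusted p-value 0.281). miR-786-3p was counted 6 and 3 times in lin-41, against 248 and 150 times in alg-1 and 9 and 6 times in gld-1, and miR-1829c-5p 3 and 0 times, against 530 and 548 in alg-1 and 14 and 2 in gld-1. miR-795-5p of the let-7 family was at 19 and 2 reads in lin-41, against 372 and 239 in alg-1 and 18 and 45 in gld-1. In all 4 the alg-1 libraries stood above both other pulldowns.

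The neighbours miR-65-5p and miR-66-5p, encoded in an intron of gcn-1 on chromosome III, were high in gld-1 instead. miR-65-5p had 14800 and 9112 normalised CPM in lin-41, against 10228 and 6097 in alg-1 and 159841 and 567732 in gld-1. Its log2 fold change against the average was −2.19 (edgeR adjusted p-value 9.52e-03), and against alg-1 alone it was 0.55 and was not called (edgeR adjusted p-value 0.674). miR-66-5p had 7009 and 6978 normalised CPM in lin-41, against 4724 and 4491 in alg-1 and 123971 and 71502 in gld-1.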
